A study of Mus musculus with 6 samples.

Results

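The genes described here make cholesterol and fatty acids or answer to the sterol regulatory element-binding proteins (SREBPs) that control that synthesis. The list holds 37 genes: 17 enzymes of the sterol pathway, 6 regulators and carriers (Insig1, Insig2, Scap, Srebf1, Srebf2 and Stard4), 7 genes of fatty acid production and 7 elongases and desaturases. It was drawn up from pathway membership, not from measured values, although with earlier results of these arrays known. All 37 were found on the array, among 18193 genes with a probe set of their own, and they were read by 88 probe sets out of 45037. Each gene is represented by its brightest probe set (by mean level across the 6 mice), with the dimmer tested ones given beside it. Testing required a level above 4 (log2) in 3 mice or more, which 36 of the 37 genes reached. The exception was Acacb, the mitochondrial isoform of acetyl-CoA carboxylase, at 3.61, 4.22 and 3.12 in wild type mice 1, 3 and 4 and 4.01, 3.67 and 3.96 in double knockout mice 1, 2 and 3.

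The arrays came from the jejunum of 6 male mice on a C57BL/6 background, individually caged and 7 to 10 weeks old. Wild type mice (n = 3) were compared with mice that carry a double knockout of TIS7 (Ifrd1) and SKMc15 (Ifrd2), both described as transcriptional regulators (n = 3). All of them ate a synthetic diet with 42% of energy from milk fat and 0.2% from cholesterol, and the tissue was taken after 3 weeks of it. There was no group on another diet, so every value below is from a jejunum under fat and cholesterol load; the sources used here do not say how the alleles were made or which exons are lost. Levels are log2 values, and a difference is double knockout minus wild type, with its limma standard error (SE) and a p-value adjusted over 18013 tested probe sets, called at 0.05 or below.

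Ifrd1 lay between 9.84 and 10.00 in wild type and between 4.80 and 6.27 in double knockout mice, the highest of these in mouse 1, and Ifrd2 was at least 20.8-fold lower in the double knockout. All 11 enterocyte markers were bright enough to test, while both ileum markers, Fabp6 and Slc10a2, were under the minimum level on all of them. Adipocyte transcripts were also present: the fat cell hormone Adipoq read 8.28 to 10.38 across the mice. The mean difference between 3′ and 5′ probe sets of the Gapdh and beta-actin control transcripts, a sign of RNA quality, was 0.35, 0.49 and 0.36 in wild type mice 1, 3 and 4 and 0.60, 0.41 and 0.61 in double knockout mice 1, 2 and 3. In whole tissue, fewer cells of a type and less RNA per cell cannot be told apart.

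Cholesterol is built from acetyl-CoA through mevalonate, farnesyl diphosphate, squalene and lanosterol. SREBP-2, the product of Srebf2, and SREBP-1, the product of Srebf1, are held in the endoplasmic reticulum by Scap and the Insig proteins while sterols are plentiful. When sterols run low, Scap carries them to the Golgi, where they are cut and freed to switch on sterol genes (mainly SREBP-2) and fatty acid genes (mainly SREBP-1c). In the intestine both routes run beside the uptake of dietary fat and cholesterol.

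Most of these genes read higher in the double knockout, by small amounts, and few were called. Of 36 tested genes, 29 had positive differences and 7 negative, with a median difference of 0.28, against 0.05 over all 9673 tested genes, of which 58.1% were positive. The call was reached by 2 genes, Fads1 and Fdps, both higher. Over all tested genes 3.17% were called higher, 1.6% lower and 4.78% in either direction, so a share of 5.56% here, which is 2 genes, lies near the background. No member was called lower on its brightest probe set, and at an unadjusted limma p of 0.05 or less there were 14 higher and 3 lower, against 17.6% and 10.4% of all genes.

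All double knockout values lay above all wild type values for 15 genes (41.7%, against 22.5% of all tested genes) and below them for 3 (8.33%, against 14.2%). Relative to each gene's wild type mean, the median member stood at -0.02, 0.12 and -0.11 in wild type mice 1, 3 and 4 and at 0.27, 0.17 and 0.30 in double knockout mice 1, 2 and 3. Wild type mouse 4 was the lowest of the wild type mice, and without it the median difference was 0.16. With the 3′ to 5′ difference as a covariate it was 0.18 and no member was called. The part of either in the result was not tested.

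**Figure D1:**
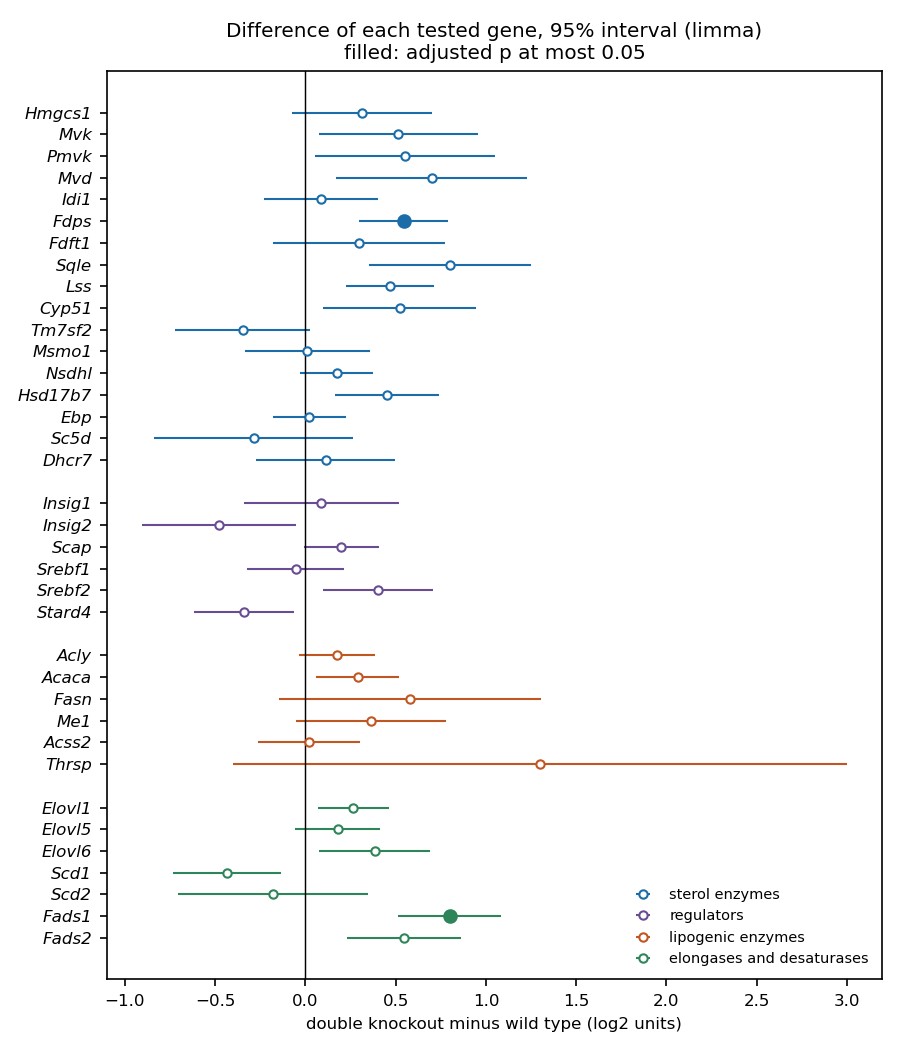
Difference between double knockout and wild type jejunum (x axis, log2 units) for each of the 36 tested genes (y axis), from the brightest probe set, with the 95% interval of the limma fit; colours mark the gene's role. Filled points are the 2 genes called at an adjusted p of at most 0.05, Fdps at 0.54 and Fads1 at 0.80, and Thrsp at 1.30 has the widest interval.

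Among the sterol enzymes, the largest differences were those of Sqle, Mvd, Pmvk, Fdps, Cyp51 and Mvk, all positive, and of these only Fdps was called. Of the 17 enzymes, 15 had positive differences and 2 negative, with a median of 0.31. There was 1 called higher (5.88%), 0 lower and 16 not called, against 3.17% higher and 1.6% lower over all tested genes. At an unadjusted limma p of 0.05 or less, 8 were higher and 0 lower, against 17.6% and 10.4% of all tested genes. Groups did not overlap for 7 enzymes higher in the double knockout (41.2%, against 22.5% of all tested genes) and 1 lower (5.88%, against 14.2%).

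Fdps, which makes farnesyl diphosphate, the branch point to sterols and to prenylated proteins, was the only sterol enzyme called on its brightest probe set. It read 8.51, 8.71 and 8.39 in wild type mice 1, 3 and 4 and 9.06, 9.08 and 9.09 in double knockout mice 1, 2 and 3. The 3 double knockout mice were nearly identical and all above the wild type. The difference was 0.54 ± 0.10 (SE), or 1.46-fold, with a limma adjusted p of 0.0416. The call depended on every array: its adjusted p was 0.122 when wild type mouse 1 was left out, 0.0566 for mouse 3 and 0.132 for mouse 4, and 0.0838, 0.0786 and 0.125 for double knockout mice 1, 2 and 3, while the difference stayed between 0.47 and 0.63. Over all probe sets, leaving out a mouse cut 458 calls higher and 347 lower to 11 to 196 and 21 to 239. The other Fdps probe set lay under the minimum level on all arrays.

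Upstream of it lie the enzymes that make and activate mevalonate. Hmgcs1, the cytosolic HMG-CoA synthase at the entrance to the pathway, read 11.17, 11.42 and 10.82 in wild type mice 1, 3 and 4 and 11.56, 11.31 and 11.47 in the double knockout mice. The groups overlapped, wild type mouse 4 was lowest, and the difference was 0.31 ± 0.16 (adjusted p = 0.266). Its other 4 probe sets gave differences from 0.18 to 0.44, none called.

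The mevalonate kinase Mvk and the phosphomevalonate kinase Pmvk had differences of 0.51 ± 0.18 and 0.55 ± 0.21 (adjusted p = 0.141 and 0.155). The other tested Mvk probe set gave 0.12 ± 0.12 with overlapping groups. Mvd, which removes the carboxyl group of mevalonate diphosphate, read 4.90, 5.76 and 5.21 in wild type mice 1, 3 and 4 and 6.12, 5.79 and 6.06 in double knockout mice 1, 2 and 3. These groups did not overlap, but wild type mouse 3 came within 0.1 of double knockout mouse 2, and the difference of 0.70 ± 0.22 was not called (adjusted p = 0.110). A second Mvd probe set gave 0.61 ± 0.19. Idi1, the isopentenyl diphosphate isomerase, differed by 0.09 ± 0.13 and, on its other probe set, by 0.14 ± 0.15, with overlapping groups on both.

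Downstream of Fdps, squalene is made by Fdft1, oxidised by Sqle, a rate-limiting step, and closed into lanosterol by Lss. Sqle had the largest difference of the sterol enzymes: it read 6.99, 7.08 and 6.46 in wild type mice 1, 3 and 4 and 7.87, 7.57 and 7.50 in double knockout mice 1, 2 and 3. Every double knockout mouse exceeded every wild type mouse, yet the spread left 0.80 ± 0.19 (1.74-fold) short of the call (adjusted p = 0.0625). Lss read 6.09, 6.20 and 6.02 in wild type mice 1, 3 and 4 and 6.72, 6.48 and 6.51 in double knockout mice 1, 2 and 3, again without overlap, with a difference of 0.47 ± 0.10 (adjusted p = 0.0553). A second Lss probe set gave 0.23 ± 0.11 with overlapping groups. Fdft1 differed by 0.30 ± 0.20 and by 0.34 ± 0.18 on its 2 tested probe sets, and double knockout mouse 2 lay among the wild type mice on both.

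The enzymes that turn lanosterol into cholesterol did not move as a block. Cyp51, the lanosterol demethylase, read 8.44, 8.78 and 8.30 in wild type mice 1, 3 and 4 and 9.28, 8.75 and 9.06 in double knockout mice 1, 2 and 3, a difference of 0.52 ± 0.18 (adjusted p = 0.127) in which wild type mouse 3 overlapped double knockout mouse 2. Its second probe set showed no overlap and a difference of 0.56 ± 0.15 (adjusted p = 0.0781). Hsd17b7, the ketosteroid reductase of the pathway, differed by 0.45 ± 0.12, 0.22 ± 0.10 and 0.19 ± 0.08 on its 3 tested probe sets, without overlap on any of them (adjusted p = 0.0790, 0.214 and 0.181).

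Nsdhl, the sterol dehydrogenase that works before Hsd17b7, differed by 0.17 ± 0.08. Msmo1, the methyl sterol oxidase, differed by 0.01 ± 0.14, the sterol isomerase Ebp by 0.02 ± 0.08 and the reductase Dhcr7, at the end of the pathway, by 0.11 ± 0.16. None of these 4 was called. The 95% intervals were -0.33 to 0.36 for Msmo1, -0.18 to 0.22 for Ebp and -0.27 to 0.50 for Dhcr7, so rises as large as that of Fdps lie outside all of them.

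The sterol C-desaturase Sc5d and the sterol reductase Tm7sf2 ran the other way. On its brightest probe set Sc5d read 10.49, 10.02 and 9.97 in wild type mice 1, 3 and 4 and 10.32, 9.73 and 9.56 in double knockout mice 1, 2 and 3, which overlap, and the difference was -0.29 ± 0.23 (adjusted p = 0.456). On its second probe set it read 7.88, 7.93 and 7.72 in wild type mice 1, 3 and 4 and 7.24, 7.29 and 7.23 in double knockout mice 1, 2 and 3. There the groups were well apart and Sc5d fell by 0.59 (SE 0.09, limma adjusted p = 0.0267). This was the only call among the members' probe sets other than the brightest; of 69 tested, 2 were called higher and 1 lower, against 2.54% and 1.93% of all probe sets (4.47% in either direction). It was lost on leaving out any mouse. The limma adjusted p was 0.0908, 0.0681 and 0.0787 on dropping wild type mice 1, 3 and 4 in turn. It was 0.0664, 0.0510 and 0.0911 on dropping the double knockout mice. Calls over all probe sets also fell in these fits, as given for Fdps.

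Tm7sf2 read 6.63, 6.86 and 6.71 in wild type mice 1, 3 and 4 and 6.47, 6.62 and 6.06 in double knockout mice 1, 2 and 3, without overlap but with double knockout mouse 2 close to wild type mouse 1 (-0.35 ± 0.16, adjusted p = 0.209). Ifrd2 shares its chromosome with Sc5d, Scap, Me1 and Elovl5; there 8.76% of 548 tested genes were called in either direction, against 4.54% of 9114 elsewhere. No member shares a chromosome with Ifrd1.

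Relative to their wild type means, the median sterol enzyme stood at -0.03, 0.12 and -0.12 in wild type mice 1, 3 and 4 and at 0.43, 0.17 and 0.36 in double knockout mice 1, 2 and 3. Double knockout mouse 2 was thus only slightly above wild type mouse 3. It also had the lowest 3′ to 5′ difference of its group, below that of wild type mouse 3, and with that difference as a covariate the median over the sterol enzymes was 0.12. Without wild type mouse 4 it was 0.17, without wild type mouse 3 it was 0.45 and without double knockout mouse 2 it was 0.45.

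Most markers of dividing cells were higher too: 5 of 7 tested were called higher, against 3.17% of all tested genes. In order of p-value these were the ubiquitin-conjugating enzyme Ube2c (0.77 ± 0.11), the replication helicase subunit Mcm5 (0.52 ± 0.08), the mitotic kinase Cdk1 (0.60 ± 0.10), the topoisomerase Top2a (0.55 ± 0.10) and the mitotic regulator Birc5 (0.59 ± 0.11), the last outside the naming rule and named after its value was seen. Also outside that rule, Mki67 (0.45 ± 0.11, limma adjusted p = 0.0674) and Pcna (-0.05 ± 0.11, 0.8) were not called. The groups overlapped for Pcna, the only negative difference of the list. The summed linear level of all 7 was 5090 to 5420 in wild type and 6500 to 7320 in double knockout mice. Enterocyte markers had 10 of 11 negative differences, none called, and a summed level of 134000 to 136000 against 126000 to 129000. For 7 of the 11 (63.6%, against 14.2% of all tested genes), all double knockout values lay below all wild type values. For 0 they lay above (against 22.5%). The smallest p was that of the lactase Lct (-0.29 ± 0.08, limma adjusted p = 0.0847). The part of a shift in cell types in the sterol enzyme values was not tested.

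**Figure D2:**
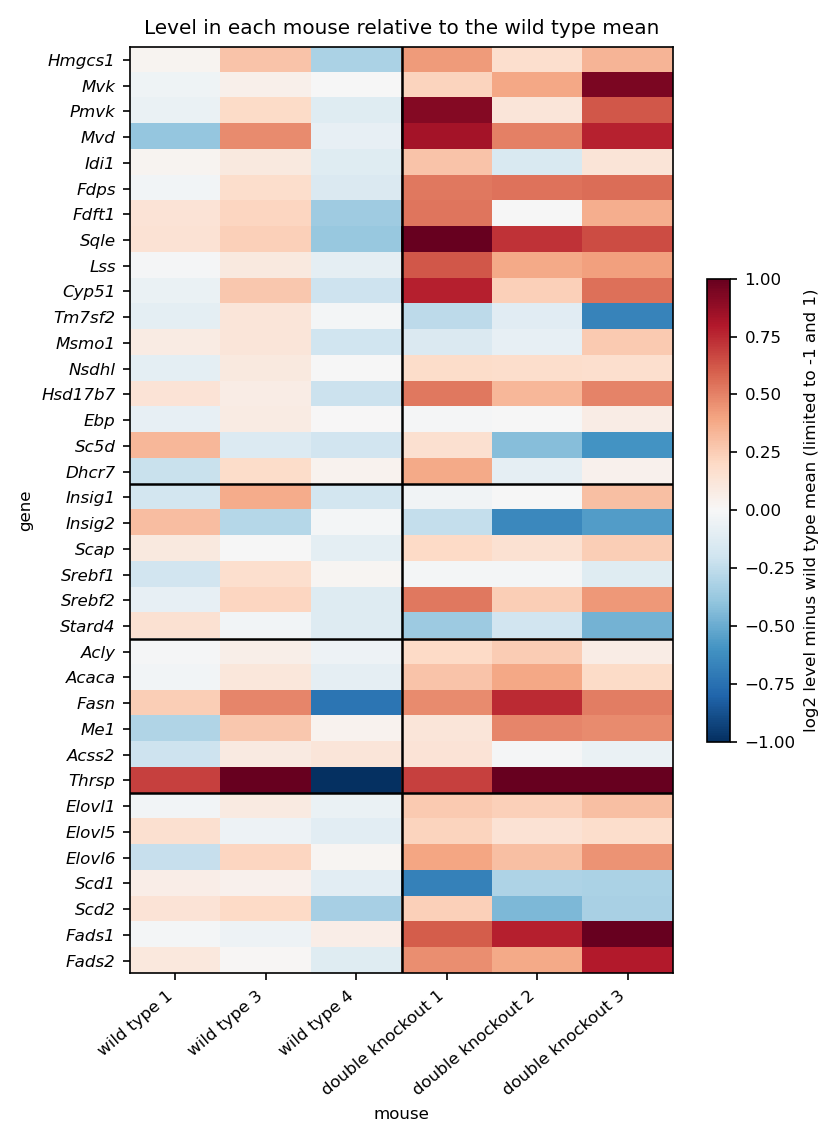
Log2 level of each tested gene (rows, grouped by role in the order sterol enzymes, regulators, lipogenic enzymes, elongases and desaturases) in each mouse (columns), minus the gene's wild type mean; colours end at -1 and 1 log2 units, which only Sqle, Thrsp and Fads1 pass. Mvk, Mvd, Fdps, Sqle, Lss, Fads1 and Fads2 are red in all 3 double knockout columns, and Insig2, Stard4 and Scd1 are blue there.

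Regulators differed in both directions and none of the 6 was called: 3 were positive, 3 negative, with a median of 0.02. At an unadjusted limma p of 0.05 or less, 1 was higher and 2 lower, against 17.6% and 10.4% of all tested genes. Srebf2, the transcript of SREBP-2, read 7.07, 7.36 and 7.02 in wild type mice 1, 3 and 4 and 7.68, 7.40 and 7.58 in double knockout mice 1, 2 and 3. The groups did not overlap, although double knockout mouse 2 came close to wild type mouse 3 as it did for the enzymes. The difference was 0.40 ± 0.13 (adjusted p = 0.110), and a second probe set, with overlap, gave 0.51 ± 0.18 (adjusted p = 0.142). Srebf1 read 10.73, 11.10 and 10.95 in wild type and 10.91, 10.91 and 10.80 in double knockout mice, fully overlapping, with a difference of -0.05 ± 0.11 and a 95% interval of -0.32 to 0.22. Whether its probe set separates the SREBP-1a and SREBP-1c transcripts was not tested.

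Scap, the escort of both SREBPs, differed by 0.20 ± 0.09 without overlap (adjusted p = 0.198). Insig1, which retains the Scap complex and is itself a sensitive SREBP target, differed by 0.09 ± 0.18 with the groups fully overlapping. Insig2, the retention protein that sterols and SREBP regulate little, read 8.76, 8.17 and 8.44 in wild type mice 1, 3 and 4 and 8.22, 7.81 and 7.90 in double knockout mice 1, 2 and 3. Its difference was -0.48 ± 0.18 (adjusted p = 0.151), and its other probe sets gave -0.27 ± 0.18 and -0.35 ± 0.18, with overlap on all 3.

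Stard4, a cytosolic sterol carrier whose gene is a known SREBP-2 target, was lower on all of its probe sets without overlap. The brightest read 11.18 in wild type mouse 1, its highest value, and 10.90 in wild type mouse 4, with mouse 3 between them, and 10.66, 10.84 and 10.56 in double knockout mice 1, 2 and 3. Its differences were -0.34 ± 0.12, -0.34 ± 0.10 and -0.46 ± 0.12, with adjusted p-values of 0.126, 0.0888 and 0.0760, so none was called. This sign is opposite to that of Srebf2 and of most sterol enzymes.

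The promoters were searched for motifs that SREBPs and their partner NF-Y are known to bind, and 4 windows are shown from members of either sign. RefSeq starts (GRCm38.p6) were given for 30 of the 37 genes; Fdps, Fdft1, Sqle, Stard4, Scd1, Scd2 and Fads1 are without a window here. In the 250 bases before each start, on both strands, the sterol regulatory element core TCACNCCAC occurred in 1 of 30 members, Hmgcs1, and in 1.2% of 7889 tested genes. Only exact matches to that core were counted, so elements that differ from it by a base are neither counted nor marked. The E-box CACGTG, which SREBPs can also bind, occurred in 6 of 30 (Hsd17b7, Sc5d, Dhcr7, Insig1, Scap and Elovl5), or 20% against 10.5%, and the NF-Y box CCAAT in 25 of 30, or 83.3% against 40.7%. The 3 motifs share no position in the windows below, and a match is no evidence of binding. The windows are given 5′ to 3′ on the gene's strand with each motif match in capitals: Hmgcs1 at chr13:119690101-119690350 (plus strand), Cyp51 at chr5:4104698-4104947 (minus), Srebf2 at chr15:82147019-82147268 (plus) and Sc5d at chr9:42264301-42264550 (minus).
Hmgcs1: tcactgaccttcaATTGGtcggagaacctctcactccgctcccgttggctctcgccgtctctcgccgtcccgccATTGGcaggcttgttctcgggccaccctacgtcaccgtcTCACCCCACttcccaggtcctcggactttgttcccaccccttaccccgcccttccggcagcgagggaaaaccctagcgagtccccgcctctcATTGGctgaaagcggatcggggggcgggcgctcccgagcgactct
Cyp51: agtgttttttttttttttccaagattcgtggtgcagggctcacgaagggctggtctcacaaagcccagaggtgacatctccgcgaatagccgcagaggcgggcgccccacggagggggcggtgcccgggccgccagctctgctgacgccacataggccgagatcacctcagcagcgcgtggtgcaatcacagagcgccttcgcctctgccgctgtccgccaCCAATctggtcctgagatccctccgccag
Srebf2: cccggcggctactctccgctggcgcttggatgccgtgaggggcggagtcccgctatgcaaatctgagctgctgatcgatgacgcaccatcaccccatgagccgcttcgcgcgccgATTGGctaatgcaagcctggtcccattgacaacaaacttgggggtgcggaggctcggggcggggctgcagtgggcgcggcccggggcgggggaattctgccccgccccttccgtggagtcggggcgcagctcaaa
Sc5d: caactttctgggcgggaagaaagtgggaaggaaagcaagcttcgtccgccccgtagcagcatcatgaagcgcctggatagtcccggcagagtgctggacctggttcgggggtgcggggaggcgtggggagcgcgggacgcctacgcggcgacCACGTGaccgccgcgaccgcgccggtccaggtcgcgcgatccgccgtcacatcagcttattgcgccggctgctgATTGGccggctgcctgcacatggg
In the Hmgcs1 window the element lies at -137 to -129 from the start, with CCAAT boxes, written ATTGG on this strand, on either side of it. By exact match, Cyp51 and Srebf2 hold a CCAAT box each. Sc5d, called lower only on its second probe set, holds an E-box at -98 to -93 and a CCAAT box at -24 to -20.

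Genes of fatty acid production had positive differences for all 6 tested members, with a median of 0.33, and none was called. They supply acetyl-CoA (Acly, Acss2), malonyl-CoA (Acaca), NADPH (Me1) and the palmitate synthase itself (Fasn), while Thrsp encodes the lipogenic regulator Spot 14. At an unadjusted limma p of 0.05 or less, 1 was higher and 0 lower, against 17.6% and 10.4% of all tested genes. Acaca read 5.51, 5.64 and 5.44 in wild type mice 1, 3 and 4 and 5.82, 5.92 and 5.72 in double knockout mice 1, 2 and 3, without overlap (0.29 ± 0.10, adjusted p = 0.121). Acly differed by 0.17 ± 0.09, also without overlap, but its other tested probe sets gave 0.13 ± 0.14 and -0.02 ± 0.19, which makes it the only member whose tested probe sets differ in sign.

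Me1 differed by 0.36 ± 0.17 on the brightest probe set and by 0.04 ± 0.14 on the other, with overlap on both. Acss2 differed by 0.02 ± 0.12 and 0.10 ± 0.13. For these 2 enzymes the groups cannot be separated at this number of arrays.

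For Fasn and Thrsp a single mouse stood far from the rest. Fasn read 8.36, 8.60 and 7.38 in wild type mice 1, 3 and 4 and 8.59, 8.86 and 8.62 in double knockout mice 1, 2 and 3. Thrsp read 7.11, 7.45 and 4.71 in wild type mice 1, 3 and 4 and 7.11, 8.05 and 8.01 in double knockout mice 1, 2 and 3. Wild type mouse 4 was far below every other mouse for both genes, and the groups overlapped. The differences were 0.58 ± 0.30 for Fasn and 1.30 ± 0.71 for Thrsp (adjusted p = 0.270 and 0.286). Without wild type mouse 4 they were 0.21 ± 0.14 and 0.45 ± 0.31 (adjusted p = 0.442 and 0.478). The dimmer Thrsp probe set read 5.11, 5.06 and 3.94 in wild type mice 1, 3 and 4 and 5.27, 5.75 and 5.76 in double knockout mice 1, 2 and 3. There mouse 4 was again lowest, but the groups did not overlap, and the difference was 0.89 ± 0.33 (adjusted p = 0.149).

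The 5 tested adipocyte markers were also lowest in that mouse. Adipoq read 9.90, 10.38 and 8.28 in wild type mice 1, 3 and 4 and 9.53, 9.75 and 10.15 in double knockout mice 1, 2 and 3. Of 6 adipocyte markers with a probe set, 5 were tested; all 5 had positive differences and none was called, the largest being the adipokine Retn (1.58 ± 0.51, adjusted p = 0.113) and the smallest the lipid droplet protein Cidec (0.27 ± 0.13). The summed linear level of all 6 ran from 3640 to 11000 in wild type and from 9070 to 13300 in double knockout mice. The sixth, the hormone Lep, was not bright enough to test; it read 3.79, 4.60 and 2.32 in wild type mice 1, 3 and 4 and 2.97, 2.51 and 2.21 in double knockout mice 1, 2 and 3, lowest in the latter. Plin1 is not analysed here. The part of fat tissue in the Fasn and Thrsp values was not tested.

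**Figure D3:**
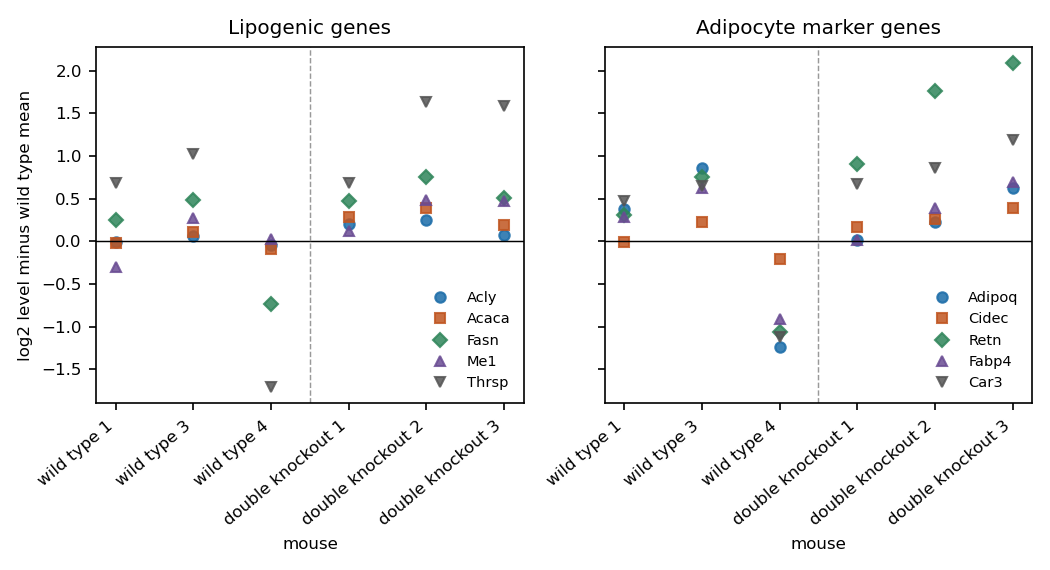
Log2 level minus the wild type mean (y axis) in each mouse (x axis) for 5 lipogenic genes (left) and the 5 tested adipocyte markers (right). Wild type mouse 4 is lowest for Fasn, Thrsp and every adipocyte marker, while Acaca and Acly vary far less.

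Elongases and desaturases held the second called gene and the clearest opposite signs. Of 7 tested genes, 5 had positive and 2 negative differences, with a median of 0.27. The call was reached by 1 gene higher (14.3%) and 0 lower, against 3.17% and 1.6% of all tested genes. At an unadjusted limma p of 0.05 or less, 4 were higher and 1 lower, against 17.6% and 10.4% of all tested genes. Groups did not overlap for 4 genes higher in the double knockout (Elovl1, Elovl6, Fads1 and Fads2) and 1 lower (Scd1). These are 57.1% and 14.3% of the list, against 22.5% and 14.2% of all tested genes.

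Fads1 and Fads2, neighbouring genes on the same chromosome, encode the desaturases that make long polyunsaturated fatty acids from the essential linoleic and alpha-linolenic acids. Fads1 read 6.37, 6.34 and 6.46 in wild type mice 1, 3 and 4 and 7.00, 7.17 and 7.40 in double knockout mice 1, 2 and 3. The wild type mice were tightly grouped and all double knockout mice stood above them. Fads1 rose by 0.80 ± 0.12, or 1.74-fold (limma adjusted p = 0.0267). It passed without double knockout mouse 1 (0.90 ± 0.11, adjusted p = 0.0445) but not on dropping wild type mice 1, 3 and 4 in turn (adjusted p = 0.0906, 0.0681 and 0.102), nor double knockout mice 2 and 3 (0.0533 and 0.0681). With the 3′ to 5′ covariate its difference was as large, 0.80 ± 0.17, and the adjusted p was 0.174. Calls over all probe sets also fell in these fits, to 5 higher and 12 lower with the covariate.

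Fads2 read 7.78, 7.69 and 7.56 in wild type mice 1, 3 and 4 and 8.14, 8.05 and 8.47 in double knockout mice 1, 2 and 3. It too showed no overlap, and its difference was 0.54 ± 0.13 (adjusted p = 0.0661). The other tested probe sets of Fads2 gave 0.35 ± 0.11 and 0.16 ± 0.12. Wild type mouse 4, low in Fasn and Thrsp, was the lowest of all mice on the brightest Fads2 probe set. On the second it was the highest wild type mouse (6.37, against 6.10 and 6.05 in mice 1 and 3). On the third, wild type mouse 3 was lowest. For Fads1, mouse 4 was the highest wild type mouse.

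Scd1, a stearoyl-CoA desaturase that makes oleate and palmitoleate, had the opposite sign to Fads1 and Fads2. It read 13.57, 13.55 and 13.40 in wild type mice 1, 3 and 4 and 12.83, 13.19 and 13.19 in double knockout mice 1, 2 and 3. Every double knockout mouse was below every wild type mouse on both probe sets, with differences of -0.43 ± 0.13 and -0.69 ± 0.18 that were not called (adjusted p = 0.0930 and 0.0747). Scd2, a related desaturase, differed by -0.32 ± 0.23 on its dimmer probe set, with overlap, and by -0.18 ± 0.22 on the brightest, with double knockout mouse 1 above all wild type mice and double knockout mouse 2 below them.

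Among the elongases, Elovl6, which extends palmitate to stearate, read 8.85, 9.29 and 9.10 in wild type mice 1, 3 and 4 and 9.47, 9.38 and 9.53 in double knockout mice 1, 2 and 3. The groups did not overlap, and the difference was 0.38 ± 0.13 (adjusted p = 0.123). The dimmer Elovl6 probe sets gave 0.32 ± 0.14 without overlap and 0.46 ± 0.27 with it. Elovl1, which makes very long saturated chains, differed by 0.27 ± 0.08 without overlap (adjusted p = 0.108), and its dimmer probe sets gave 0.22 ± 0.08 without overlap and 0.03 ± 0.10 and 0.11 ± 0.17 with it. Elovl5, which extends polyunsaturated chains between the Fads2 and Fads1 steps, differed by 0.18 ± 0.10 and 0.28 ± 0.11 (adjusted p = 0.288 and 0.158).

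**Figure D4:**
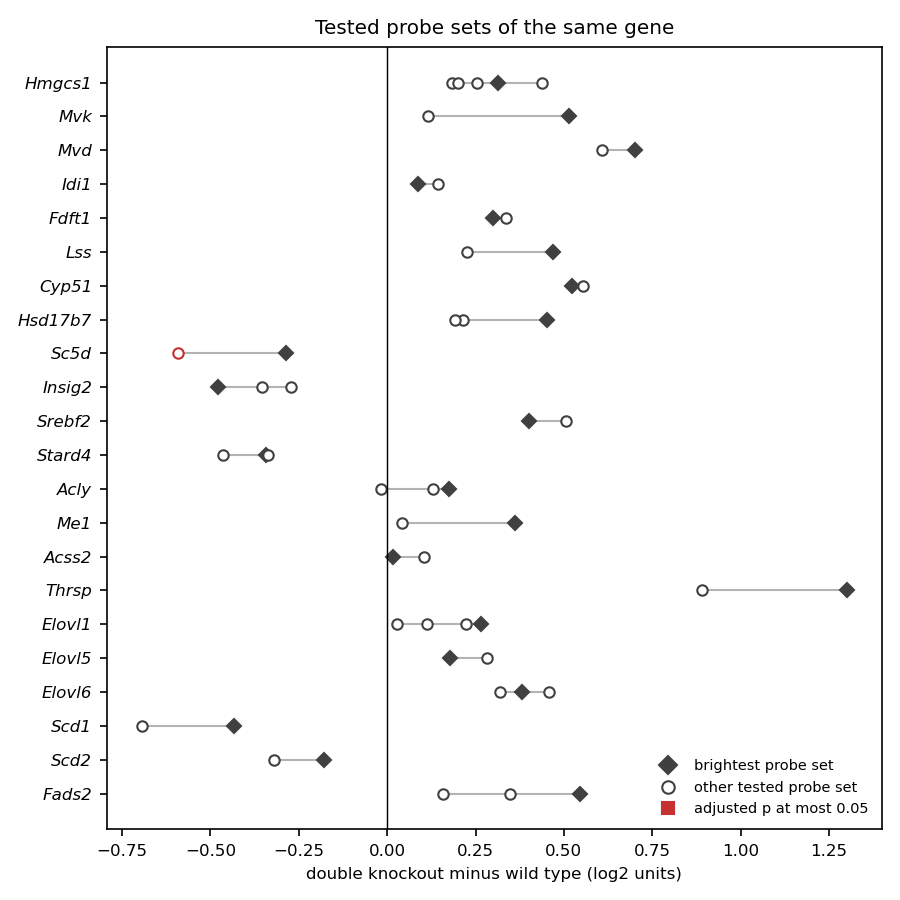
Difference between double knockout and wild type (x axis, log2 units) of every tested probe set for the 22 genes (y axis) with more than 1; diamonds are the brightest probe set, circles the others, and red marks an adjusted p of at most 0.05. All tested probe sets lie on the same side of 0 for 21 of the 22 genes; Acly is the exception, and the only red symbol is the second Sc5d probe set at -0.59.

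Other genes of the same pathways, from lists not picked by their values, although with earlier results of these arrays known, gave no call. Of 8 tested isoprenoid and sterol genes outside the members, 6 were positive and 0 called (median 0.12). The smallest p-values were those of Dhdds, a subunit of the prenyltransferase that extends farnesyl diphosphate towards dolichol, at 0.38 ± 0.08 (adjusted p = 0.0574), and Aacs, which activates acetoacetate, at 0.29 ± 0.10 (0.130). Of 13 tested genes that process or degrade SREBP pathway proteins or act beside them, 7 were positive and 0 called (median 0.00), with the ubiquitin-conjugating enzyme Ube2g2 at 0.50 ± 0.16 and the membrane protein Pgrmc1 at -0.24 ± 0.08 (adjusted p = 0.109 and 0.112). At an unadjusted limma p of 0.05 or less, the former list gave 2 higher and 0 lower. The latter gave 1 higher and 1 lower. Over all tested genes the shares at that p were 17.6% higher and 10.4% lower.

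Of 10 tested other lipogenic genes, 4 were positive and 0 called (median -0.11, with 1 higher and 2 lower at an unadjusted limma p of 0.05 or less). The sterol-responsive membrane protein Tmem97 stood at 0.50 ± 0.13 and the acyl-CoA synthetase Acsl3 at -0.68 ± 0.16 (adjusted p = 0.0714 and 0.0587). Of 7 tested other elongation and desaturation genes, 6 were positive and 0 called (median 0.18, with 2 higher and 1 lower at an unadjusted limma p of 0.05 or less). The dehydratase Hacd1 stood at 0.32 ± 0.08 and the elongase Elovl7 at -0.40 ± 0.13 (adjusted p = 0.0646 and 0.109).

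Among markers of other cells in the tissue, limma called none but 5 of dividing cells and the tuft cell marker Rgs13, which fell by 1.00 (SE 0.17, limma adjusted p = 0.0321). Rgs13 was the only 1 of 4 tuft cell markers that could be tested, and the others lay under the minimum level on all arrays. Fibroblast markers had 7 of 7 positive differences (median 0.51), with Col3a1 at 0.73 ± 0.29, and a summed linear level of 3090 to 5040 in wild type against 4850 to 6500. Macrophage markers had 4 of 5 (median 0.31) and crypt stem cell markers 5 of 6 (median 0.23), with Ascl2 at 0.81 ± 0.19 (adjusted p = 0.0646). Medians were 0.04 for 6 smooth muscle, 0.01 for 6 goblet cell, -0.08 for 4 Paneth cell, 0.14 for 6 enteroendocrine and 0.06 for 3 lymphocyte markers, and the enterocyte median was -0.06. The proximal marker Gata4 stood at 0.50 ± 0.12 (adjusted p = 0.0625), and of 4 pancreatic acinar markers all but Clps (-0.43 ± 0.27) were under the minimum level on every array. At an unadjusted limma p of 0.05 or less, 6 of 7 dividing cell and 2 of 7 fibroblast markers were higher. So were 2 of 6 crypt stem cell, 1 of 5 macrophage and 1 of 5 adipocyte markers, and the proximal marker Gata4. Lower were 1 of 6 crypt stem cell, 1 of 6 enteroendocrine and 1 of 11 enterocyte markers, and the tuft cell marker Rgs13. The shares over all tested genes were 17.6% higher and 10.4% lower. By the median of each list, wild type mouse 4 was the lowest wild type mouse for fibroblast, macrophage, goblet cell, Paneth cell and smooth muscle markers as well as for adipocyte markers.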

How the data were processed

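Total RNA (500 ng) was labelled with biotin and hybridised to Affymetrix mouse GeneChips, 1 per mouse. The deposited values are log2 levels per probe set, which per the submitters' processing notes came from GCRMA 2.18.0. Its settings were not stated, and the log2 scale was read from the values. Since GCRMA models background from the probes' base composition, differences at low levels depend on that model.

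Probe sets with 1 gene symbol (34958 of 45101; 932 had several and 9211 none) were named through the platform annotation and GRCm38.p6 gene table. After removal of 64 control probe sets, 18013 passed the filter. They were fitted with limma 3.58.1 in R 4.3.3 (lmFit, eBayes, no covariates), two-sided, with Benjamini-Hochberg adjustment over all of them; the fit was tested on simulated data. The number of arrays limits the precision. Each array is a separate mouse by its label, so p-values rest on variation between animals; no 2 arrays of a group were copies. Members and lists were chosen with earlier results of these data known. Named genes are all members, Ifrd1 and Ifrd2, Adipoq and Cidec, and in each other list up to 4 called genes or up to 2 with the smallest p. Of 180 list symbols, 166 were found on the array and the rest are not analysed here. Figures were drawn with matplotlib 3.10.9.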

Additional observations from a re-analysis of the deposited data

How the results depend on the processing

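Across 17 alternatives, of which 6 left out 1 mouse, 28 of the 36 tested members kept their sign. The calls did not hold under all of them: Fads1 was called in 10 of 17, Fdps in 8 of 17 and the second Sc5d probe set in 8 of 16. With the 3′ to 5′ covariate the number of members called higher was 0, and the median differences were 0.18 over all members, 0.12 over sterol enzymes and 0.21 over fatty acid genes; Idi1 (-0.13), Fdft1 (-0.01), Msmo1 (-0.11), Ebp (-0.04), Dhcr7 (-0.13), Insig1 (-0.16) and Acss2 (-0.054) turned negative. An intensity trend in the variance prior gave 5 members higher (Fdps, Sqle, Elovl1, Fads1 and Fads2) and 1 lower (Scd1). Without the filter 1 was higher; more probe sets were then tested. Array weights and a stricter filter added Lss. Acss2 was -0.0043 with array weights and -0.0069 after quantile normalization.

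The mouse number as a block called 0 members (fatty acid median 0.20, Msmo1 at -0.044). Mice 1 and 3 of each group share a number in the labels, which do not say what it means. The correlation of their deviations was 0.02 and 0.30. These values have no reference to be set against, so they cannot settle whether the mice were paired. The main fit did not pair them. Leaving out 1 mouse gave 0 to 1 members higher and medians of 0.16 to 0.33 over all members, 0.17 to 0.45 over sterol enzymes and 0.23 to 0.34 over fatty acid genes. In those fits Idi1 ranged from -0.012 to 0.21, Msmo1 from -0.11 to 0.089, Ebp from -0.021 to 0.063, Dhcr7 from -0.023 to 0.21, Insig1 from -0.018 to 0.27, Acss2 from -0.085 to 0.078 and Srebf1 from -0.15 to 0.031. Over all probe sets, 458 higher and 347 lower became 265 and 207 without the filter, 918 and 727 with the trend, 5 and 12 with the covariate, 2 and 11 with the block, and 11 to 196 and 21 to 239 on leaving out a mouse. Apart from the filter and the smaller fits, the cause was not tested. Depth does not apply to arrays; Mvk, Mvd, Acaca and Acacb lay closest to the minimum level of 4.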
